A study of Mus musculus with 9 samples.

Results

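The 34 genes described here encode enzymes of the tricarboxylic acid (TCA) cycle and the route by which pyruvate enters it. The 34 also encode enzymes that exchange malate, aspartate and oxaloacetate with the cytosol, and enzymes that burn ketone bodies. They were chosen by name from a fixed list, not by their values, and each matched 1 row of the 54532 genes in the deposited table. Of the 34, 33 had a mean of at least 0.5 FPKM (fragments per kilobase of gene and per unit of library size, the authors' normalised level) over the 9 libraries and were tested, and the ketone body enzyme Bdh1 did not reach that level.

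The RNA came from right ventricular myocardium of wild-type C57BL/6 mice that the labels place at postnatal day 7, in 3 groups of 3 libraries. Sham mice had the control operation, VO mice a surgically made fistula as a model of volume overload, and CsA mice the fistula and injected cyclosporin A, which blocks the phosphatase calcineurin through cyclophilins. The operation was done under isoflurane. The labels name no vehicle, no dose, no age at harvest and no sham group given the drug, and they do not tie the libraries to individual mice. The p-values therefore reflect the variation among these libraries alone, and how much of it is technical is not known. The Sham libraries were not all from the same mouse, since Sham 2 had the Y-linked transcript Ddx3y and Sham 1 and Sham 3 did not.

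In the mitochondrial matrix, pyruvate is carried in by the Mpc1 and Mpc2 pair and turned into acetyl-CoA by the pyruvate dehydrogenase complex, whose decarboxylase is built from Pdha1 and Pdhb. Citrate synthase joins acetyl-CoA to oxaloacetate, and the cycle then releases carbon dioxide and hands electrons to the respiratory chain, in one step directly through succinate dehydrogenase, which is also complex II. The heart around birth moves from glucose and lactate toward fatty acids and ketone bodies, which enter the same cycle as acetyl-CoA, so these genes are known as markers of oxidative capacity in heart muscle.

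Libraries held between 12046288 and 15986747 fragments assigned to genes, and each tested member between 39 and 63606 fragments in a library. Library VO 3 stood apart: mitochondrially encoded genes took 11.01% of its fragments against 22.18% to 26.34% in the others, it had 17003 genes above 0 against 19619 to 20479, and the summed level of 5 red blood cell genes was 2038 FPKM against 591 to 1039. Xist was at 0.00401 FPKM and Y-linked Ddx3y at 18.6 FPKM in Sham 2, while the other libraries had Xist at 10.2 to 66.3 FPKM and Ddx3y at 0, so Sham 2 looked male and the others female. Markers of ventricular muscle were present in every library, with 8 of 8 above 0. They summed to 15030 to 17971 FPKM in Sham, 11129, 13788 and 17911 FPKM in VO 1 to 3 and 15089 to 16107 FPKM in CsA. In this sum VO 1 and VO 2 lay below every Sham and CsA library, as they did for Myh6, Myl3, Tnnt2 and Tnni3. For Actc1, the largest part of the sum, and for Myl2, VO 2 lay within the range of the Sham and CsA libraries. For Ryr2 and Atp2a2 VO 1 lay within that range. The part of these marker levels in the members' values was not tested. The 8 atrial markers summed to 574 and 601 FPKM in Sham 1 and Sham 3 and to 153 FPKM in CsA 3, against 11.6 to 31.7 FPKM in the other libraries. In bulk tissue, fewer cells of a type and less RNA per cell cannot be told apart.

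Windows around the annotated start are shown for 5 members on which the results below turn. The pyruvate dehydrogenase subunits Pdha1 and Pdhb had levels on opposite sides of Sham in VO. The malate dehydrogenases Mdh1 and Mdh2 had a ratio whose libraries did not overlap between the groups, with no test passed. The succinate dehydrogenase subunit Sdhd was the member with matches to 2 of the motifs searched. Each window runs 5′ to 3′ on the gene's strand from 250 bases before to 50 after the start, from RefSeq on GRCm38.p6, and capitals mark motif matches.
Pdha1 (chrX:160138381-160138680, minus strand): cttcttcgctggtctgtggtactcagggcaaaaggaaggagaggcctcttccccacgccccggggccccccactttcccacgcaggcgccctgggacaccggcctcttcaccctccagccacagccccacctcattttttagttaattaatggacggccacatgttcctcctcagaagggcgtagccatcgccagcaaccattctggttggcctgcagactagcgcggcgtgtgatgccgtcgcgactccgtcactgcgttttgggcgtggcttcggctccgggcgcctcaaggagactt
Pdhb (chr14:8172943-8173242, minus strand): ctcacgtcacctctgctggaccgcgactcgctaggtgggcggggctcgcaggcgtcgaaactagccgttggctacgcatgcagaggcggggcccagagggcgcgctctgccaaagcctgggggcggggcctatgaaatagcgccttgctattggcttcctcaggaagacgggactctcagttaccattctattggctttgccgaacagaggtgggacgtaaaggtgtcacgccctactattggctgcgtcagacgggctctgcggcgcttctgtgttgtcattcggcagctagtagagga
Mdh1 (chr11:21571885-21572184, minus strand): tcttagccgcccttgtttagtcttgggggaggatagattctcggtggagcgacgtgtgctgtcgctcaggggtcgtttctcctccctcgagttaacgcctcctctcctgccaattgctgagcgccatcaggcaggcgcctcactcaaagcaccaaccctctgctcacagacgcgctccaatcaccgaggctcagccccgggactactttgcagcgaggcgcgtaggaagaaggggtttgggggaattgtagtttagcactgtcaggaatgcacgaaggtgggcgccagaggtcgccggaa
Mdh2 (chr5:135778399-135778698, plus strand): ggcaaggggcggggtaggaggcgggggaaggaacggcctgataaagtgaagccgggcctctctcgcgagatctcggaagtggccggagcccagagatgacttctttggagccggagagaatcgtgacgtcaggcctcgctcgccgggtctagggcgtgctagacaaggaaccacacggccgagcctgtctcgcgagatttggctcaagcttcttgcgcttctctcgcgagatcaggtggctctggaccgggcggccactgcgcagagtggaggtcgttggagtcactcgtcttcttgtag
Sdhd (chr9:50603800-50604099, minus strand): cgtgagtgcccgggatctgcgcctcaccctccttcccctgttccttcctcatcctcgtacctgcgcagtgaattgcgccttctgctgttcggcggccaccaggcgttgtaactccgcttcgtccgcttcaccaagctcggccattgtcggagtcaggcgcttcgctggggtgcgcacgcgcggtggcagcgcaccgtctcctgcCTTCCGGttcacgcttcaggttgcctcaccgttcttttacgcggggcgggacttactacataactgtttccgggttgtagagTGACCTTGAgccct
All 5 windows were rich in G and C, from 59.3% in Mdh1 to 62.7% in Mdh2, with 21 to 29 CpG dinucleotides, against medians of 52.7% and 7 over all 32851 windows of the table. Of the members, 30 had a window, with 40 windows between them, and both strands were searched. TCAAGGTCA, the extended site of oestrogen-related receptors, was found in 1 of these 40 windows and in 0.423% of all windows. The match was in Sdhd, on the opposite strand from 37 bases after the RefSeq start. The looser form TNAAGGTCA, which covers every TCAAGGTCA match, was found in no further member and in 1.28% of all windows. CCGGAAG, a core bound by ETS factors such as GABPA, was found in 6 of the 40 windows and in 8.86% of all windows. These 6 were of Dlst, Idh3b, Idh3g, Mpc1, Sdhb and Sdhd. The NRF1 motif was found in 0 members and 0.971% of windows. The windows of Pdha1, Pdhb, Mdh1 and Mdh2 hold none of these letters.

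The members spanned a wide range of levels. Mdh1, the cytosolic malate dehydrogenase of the malate-aspartate shuttle, had the highest mean over the 9 libraries, 858 FPKM, and took 16.0% of the members' summed level. Sdhb, Idh2, Sdhd, Pdhb, Ogdh, Mdh2 and Sdha followed between 250 and 322 FPKM, and these neighbours overlapped in their libraries. At the low end Me2 and Me3, both mitochondrial malic enzymes, were at 5.09 and 3.67 FPKM, Pcx, which makes oxaloacetate from pyruvate, at 1.39 FPKM, and Bdh1 at 0.148 FPKM. The ATP-forming succinyl-CoA ligase subunit Sucla2 stood at 182 FPKM and its GTP-forming counterpart Suclg2 at 21.0 FPKM, so the Sucla2 level was between 6.67 and 14.2 times the Suclg2 level in each library.

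**Figure D1:**
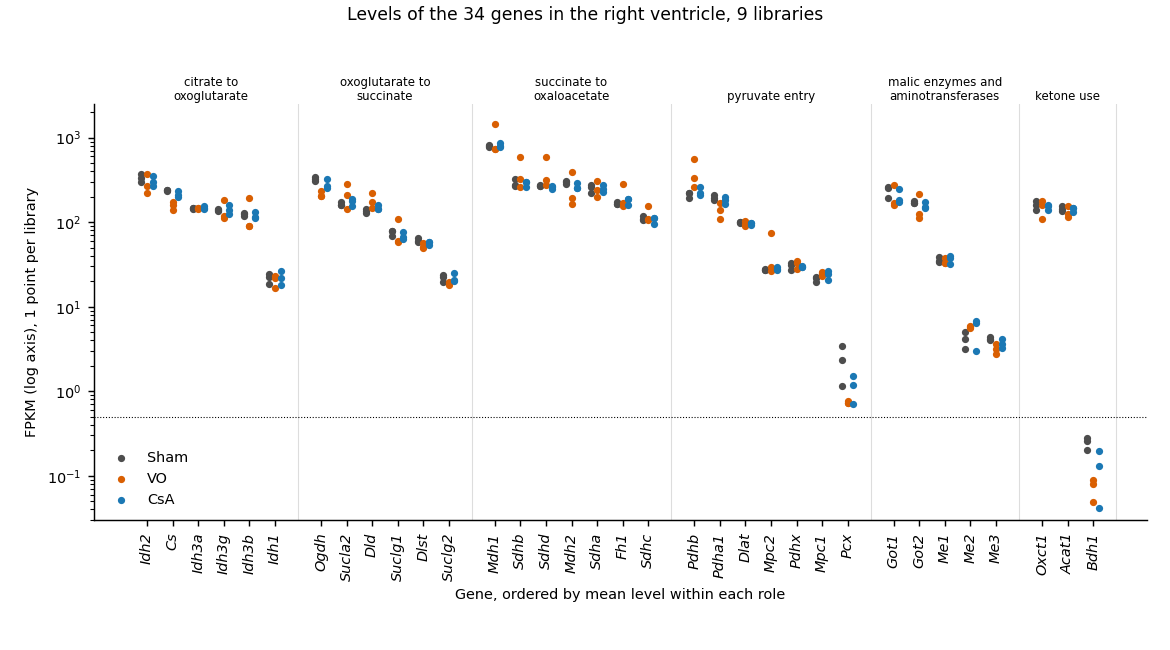
FPKM of the 34 genes on a log axis, with 1 point per library coloured by group and genes grouped by role; the dotted line marks 0.5 FPKM. Mdh1 is highest and Bdh1 alone lies under the line, and the VO point that stands high for many genes is VO 3.

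The comparison of VO with Sham asked whether overload alters the transcripts of this pathway. None of the 33 tested members passed the test. The members farthest from 0 were Pcx, Ogdh, the catalytic subunit of oxoglutarate dehydrogenase, and the citrate synthase gene Cs on the lower side and Pdhb on the higher side. In limma, 0 of 33 members had an adjusted p under 0.05, where 4.76% of all 13477 tested genes did (642 genes). At an unadjusted p under 0.05 there were 6 members, 5 lower and 1 higher, against 29.3% of all genes, and voom on recovered fragments called 0 members, where 7.5% of all genes were called (4.5% higher and 3.01% lower). For 11 of 33 members VO and Sham libraries did not overlap, 5 higher (16.2% of all tested genes) and 6 lower (17%) in VO, against 33.1% either way, so the members' share was that of the background. Of the 33, 12 were above 0 and 21 below, with a median log2 fold change of -0.05 against 0.00276 over all genes, and leaving out VO 3 moved that median to -0.20.

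**Figure D2:**
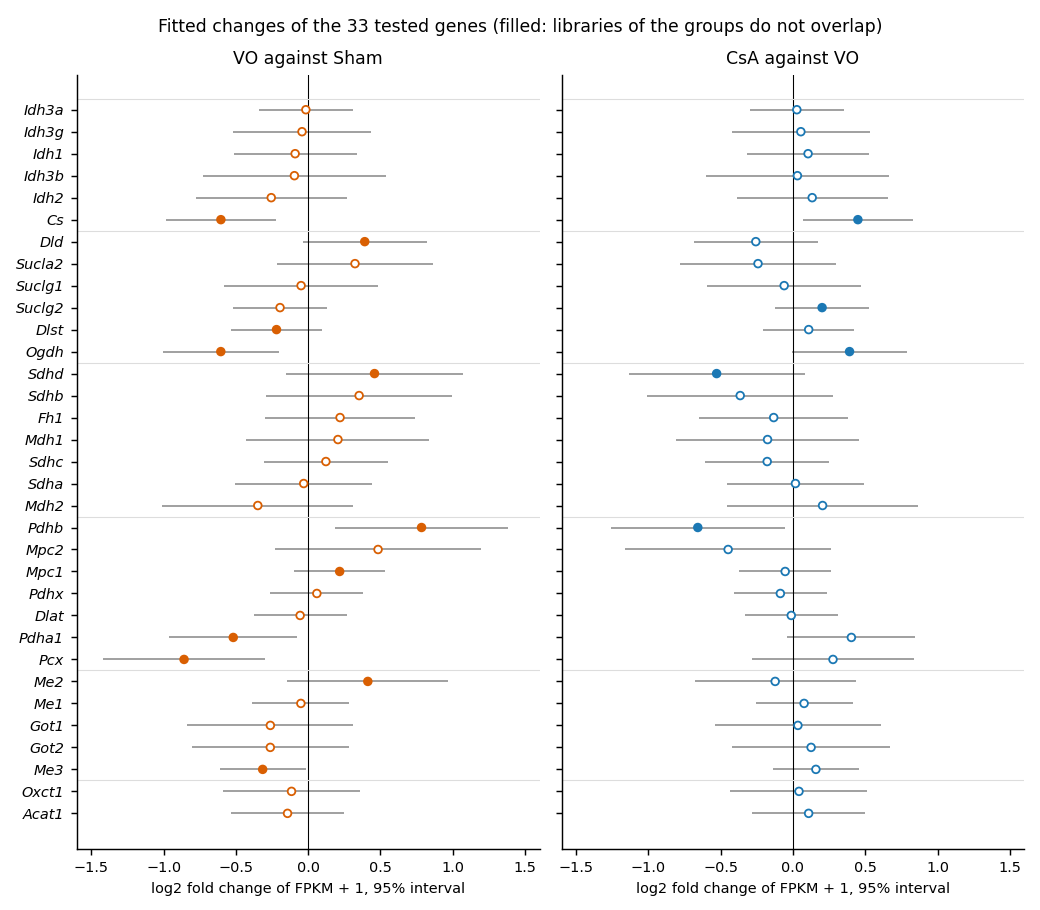
Fitted log2 fold changes on the log2(FPKM + 1) scale with 95% intervals from limma for the 33 tested genes, by role, in VO against Sham (left) and CsA against VO (right); filled points mark genes whose libraries do not overlap between the groups. In VO against Sham Pcx, Cs and Ogdh lie farthest to the left and Pdhb farthest to the right, at -0.86, -0.60, -0.60 and 0.78.

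The first steps, from the making of citrate to oxoglutarate, were below 0 in VO for 6 of 6 members, as were 21 of all 33. Of the 6 only Cs had an unadjusted p under 0.05 in limma, and Idh1, Idh3a, Idh3b and Idh3g lay close to 0, from -0.10 to -0.02. Cs (ENSMUSG00000005683, chromosome 10, 128337734 to 128362479 in GRCm38) stood at 239, 242 and 235 FPKM in Sham 1 to 3, at 162, 173 and 138 FPKM in VO 1 to 3 and at 209, 237 and 199 FPKM in CsA 1 to 3. Every VO library lay below every Sham and every CsA library, while Sham and CsA overlapped. Cs averaged 158 ± 18.1 FPKM in VO against 239 ± 3.25 FPKM (SD, n = 3), and the log2 fold change was -0.60 ± 0.17 (SE; 95% interval -0.98 to -0.22; limma adjusted p = 0.0626). Without VO 3 the call changed, at -0.51 ± 0.12 and an adjusted p of 0.0378 in limma, and once each library had been adjusted for its dependence on GC content (the GC correction) it was at -0.65 with an adjusted p of 0.0938.

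Idh2, the mitochondrial NADP-dependent isocitrate dehydrogenase, had the highest level of this step, at 334, 371 and 300.2 FPKM in Sham, 220, 266 and 373 FPKM in VO and 271, 352 and 302 FPKM in CsA. The groups overlapped, with VO 3 above the other VO libraries, and the log2 fold change of VO against Sham was -0.26 (95% interval -0.78 to 0.27), and -0.46 without VO 3. Idh3a, the catalytic subunit of the NAD-dependent enzyme of the cycle, lay between 142 and 153 FPKM in all 9 libraries, with an interval of -0.34 to 0.31 around -0.02. Its partner subunits Idh3b and Idh3g were at 89.6 and 118 FPKM in VO 1, 90.5 and 113 FPKM in VO 2 and 196 and 182 FPKM in VO 3, so VO 3 lay above all other libraries for both. Cytosolic Idh1 lay between 16.8 and 26.7 FPKM with overlapping groups.

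From oxoglutarate to succinate, Ogdh (ENSMUSG00000020456, chromosome 11, 6291633 to 6356642) was at 342, 310 and 321 FPKM in Sham, 204, 203 and 233 FPKM in VO and 254, 324 and 265 FPKM in CsA. All VO libraries lay below all others, and Sham and CsA overlapped. Ogdh averaged 213 ± 16.7 FPKM in VO against 324 ± 16.5 FPKM (SD, n = 3), and the log2 fold change was -0.60 ± 0.18 (95% interval -1.004 to -0.20; limma adjusted p = 0.0695). Without VO 3 it was at -0.67 with an adjusted p of 0.0338 in limma, past the threshold, and after the GC correction at -0.48 with 0.141. Dlst, the succinyl-transferase core of the same complex, was at 52.6 ± 4.24 against 61.4 ± 3.696 FPKM without overlap, and Dld, the shared dehydrogenase of this complex and of pyruvate dehydrogenase, at 181 ± 39.7 against 136 ± 7.86 FPKM, also without overlap (SD, n = 3). So the 3 subunit genes of 1 complex lay on different sides of Sham, with log2 fold changes of -0.60, -0.22 and 0.39, none past the test. For Dld the log2 fold change was 0.23 without VO 3 and 0.09 with the GC correction. Overlap was judged on uncorrected FPKM only, where the lowest VO library was at 145 FPKM and the highest Sham library at 144 FPKM. Among the succinyl-CoA ligase subunits, Sucla2, Suclg1 and Suclg2 had log2 fold changes of 0.32, -0.05 and -0.19 with overlapping groups. Without VO 3 these were 0.10, -0.34 and -0.22, since Suclg1 was at 58.4 and 59.2 FPKM in VO 1 and VO 2, below the 68.2 to 78.4 FPKM of Sham, and at 108 FPKM in VO 3.

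**Figure D3:**
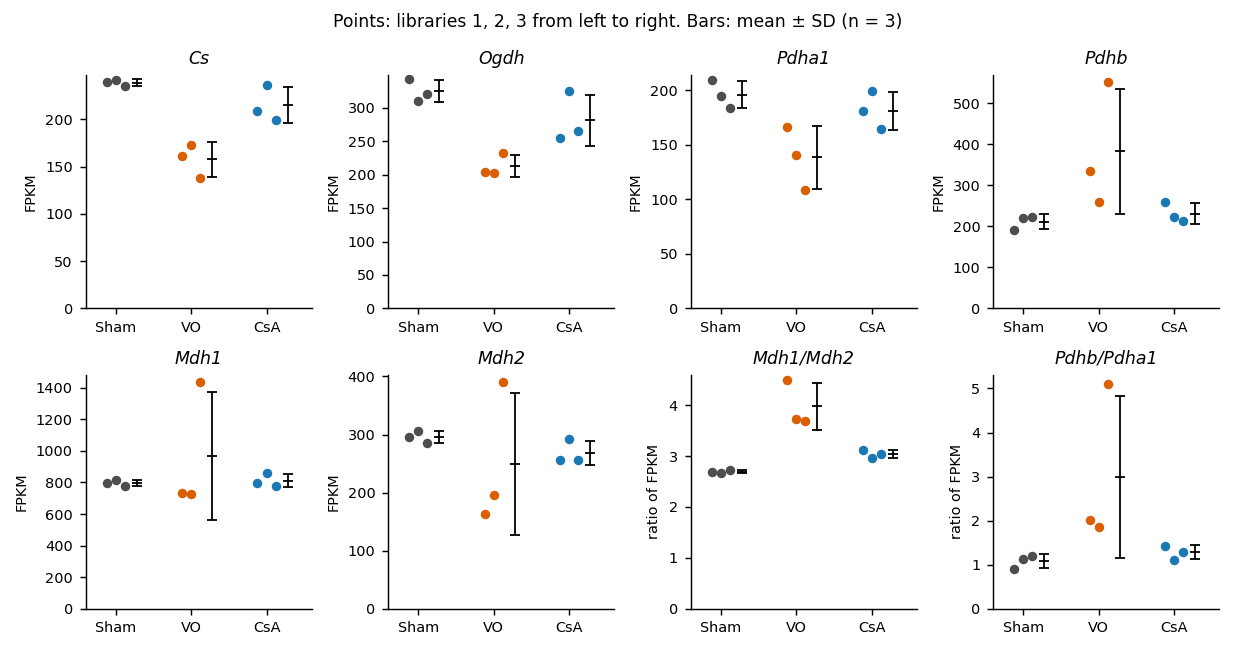
FPKM by library for Cs, Ogdh, Pdha1, Pdhb, Mdh1 and Mdh2, and the ratios Mdh1/Mdh2 and Pdhb/Pdha1, with libraries 1 to 3 from left to right and bars giving the mean ± SD (n = 3) on axes from 0. VO points lie below the other groups for Cs and Ogdh and above them for both ratios, while for Mdh1 and Mdh2 VO 3 lies above VO 1 and VO 2.

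From succinate to oxaloacetate, 5 of 7 members were above 0 in VO, and VO 3 carried much of this. The iron-sulphur subunit Sdhb was at 325, 260.0 and 589 FPKM in VO 1 to 3, against 268 to 324 FPKM in Sham and 259 to 300.3 FPKM in CsA. The membrane anchor Sdhd was at 317, 274 and 591 FPKM in VO, against 268 to 273 FPKM in Sham and 247 to 266 FPKM in CsA, without overlap. Sdha, the flavoprotein subunit, and Sdhc, the other anchor, had log2 fold changes of -0.03 and 0.12, and the fumarase gene Fh1 0.22, all with overlapping groups. The intervals for Sdhb (-0.29 to 0.99) and Sdhd (-0.15 to 1.07) include 0 and also values close to or above 1, so the data do not set the direction. Without VO 3 the log2 fold changes were 0.01 for Sdhb, 0.12 for Sdhd and -0.04 for Fh1.

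Mdh1 (ENSMUSG00000020321, chromosome 11, 21556787 to 21572367) was at 793, 814 and 776 FPKM in Sham, 734, 729 and 1437 FPKM in VO and 797, 861 and 778 FPKM in CsA. Its mitochondrial counterpart Mdh2 (ENSMUSG00000019179, chromosome 5, 135778480 to 135790398), which closes the cycle, was at 295, 305 and 285 FPKM in Sham, 163, 196 and 390 FPKM in VO and 256, 292 and 256 FPKM in CsA. Both genes were low in VO 1 and VO 2 and highest in VO 3, so neither separated the groups on its own (log2 0.21 and -0.35 for VO against Sham, and -0.12 and -0.72 without VO 3). Their ratio within a library, which does not move with the library's scale, did: the Mdh1 level was 2.69, 2.67 and 2.72 times that of Mdh2 in Sham, 4.50, 3.73 and 3.69 times in VO and 3.11, 2.95 and 3.04 times in CsA.

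The log2 Mdh1/Mdh2 ratio was 1.42 ± 0.0136 in Sham, 1.98 ± 0.16 in VO and 1.599 ± 0.0383 in CsA (SD, n = 3). No libraries overlapped between any pair of groups, VO 3 included, and all CsA values lay between Sham and VO. This was judged on uncorrected FPKM, and the share of other gene pairs that separate in this way is not given here. VO exceeded Sham by 0.55 and CsA by 0.38, and CsA exceeded Sham by 0.17, each with an exact two-sided permutation p of 0.1, the smallest that 3 against 3 allows (adjusted p = 0.5 over 15 such tests). Transcript GC content was 45.7% for Mdh1 and 50.9% for Mdh2, and with the GC correction the differences were 0.36 for VO against Sham, -0.26 for CsA against VO and 0.09 for CsA against Sham.

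The other 4 ratios had overlapping libraries between VO and Sham. Idh1/Idh2, cytosolic over mitochondrial, differed by 0.17 between VO and Sham on the log2 scale (exact permutation p = 0.6), and the direction turned without VO 1, without Sham 2 and with the GC correction. Got1/Got2, the cytosolic and mitochondrial aspartate aminotransferases, differed by 0.000397 (exact permutation p = 1), cytosolic Me1 over Me3 by 0.26 (p = 0.2) and Sucla2/Suclg2 by 0.52 (p = 0.3).

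At the entry of pyruvate, the 2 subunits of the decarboxylase of the pyruvate dehydrogenase complex lay on opposite sides of Sham in every VO library. Pdha1 (ENSMUSG00000031299, chromosome X, 160122209 to 160138413), the subunit that is switched off by phosphorylation, was at 209, 195 and 184 FPKM in Sham, 166, 141 and 108 FPKM in VO and 181, 199 and 164 FPKM in CsA. Pdhb (ENSMUSG00000021748, chromosome 14, 8165996 to 8173025) was at 191, 221 and 222 FPKM in Sham, 336, 260.0 and 552 FPKM in VO and 259, 222 and 212 FPKM in CsA. All VO libraries were below Sham for Pdha1 and above Sham and CsA for Pdhb, while for Pdha1 VO and CsA overlapped. Sham 2, the library with Y-linked transcripts, lay between the other Sham libraries for the X-linked Pdha1.

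The log2 fold changes in VO against Sham were -0.52 ± 0.20 for Pdha1 (95% interval -0.96 to -0.08; limma adjusted p = 0.12) and 0.78 ± 0.27 for Pdhb (95% interval 0.18 to 1.38; limma adjusted p = 0.0971). The Pdhb level was 0.913, 1.14 and 1.21 times that of Pdha1 in Sham, 2.02, 1.85 and 5.10 times in VO and 1.43, 1.12 and 1.29 times in CsA, a ratio chosen after its values were seen and given with no test. Pdhb passed in limma after quantile normalization (0.75, adjusted p = 0.036), where 1 of 33 members was called against 6.93% of all genes (3.17% higher and 3.76% lower). Without VO 3 it was at 0.48 and an adjusted p of 0.0689 in limma, and Pdha1 at -0.35 and 0.106. The size of both thus rests in part on VO 3. Over the 22 other settings the log2 fold change ran from 0.36 to 1.03 for Pdhb and from -0.66 to -0.35 for Pdha1.

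Of the other proteins of the complex, Dld lay above Sham in VO, as given above, and the other two overlapped with Sham. Dlat, its acetyl-transferase core, lay between 90.3 and 103 FPKM and Pdhx, which anchors Dld to that core, between 27.5 and 34.6 FPKM in all 9 libraries, with log2 fold changes in VO of -0.06 (95% interval -0.38 to 0.26) and 0.06 (-0.26 to 0.38). Mpc2, a subunit of the pyruvate carrier, was at 29.7 and 26.6 FPKM in VO 1 and VO 2 and at 73.5 FPKM in VO 3, against 27.0 to 29.7 FPKM in the other groups, and its log2 fold change of 0.48 in VO against Sham was 0.03 without VO 3. Its partner Mpc1 was at 24.9 ± 1.33 against 21.3 ± 1.299 FPKM (SD, n = 3) without overlap, a value that is uncertain because the copy Mpc1-ps, annotated as a pseudogene on chromosome 12, was listed at 212 to 430 FPKM and can share its reads. Mpc1-ps was at 362, 271 and 430 FPKM in Sham and 242, 212 and 277 FPKM in VO.

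Pcx (ENSMUSG00000024892, chromosome 19, 4510472 to 4621752) was at 2.35, 1.15 and 3.39 FPKM in Sham, 0.771, 0.736 and 0.726 FPKM in VO and 0.705, 1.52 and 1.199 FPKM in CsA. All VO libraries were below all Sham libraries (log2 fold change -0.86 ± 0.25, 95% interval -1.42 to -0.30; limma adjusted p = 0.0674). The size depended on the processing: the log2 fold change was -0.52 with the GC correction (limma adjusted p = 0.24; transcript GC content 57.7%) and -1.39 with voom (adjusted p = 0.064). Sham 1 and Sham 3, the highest for Pcx, were also the libraries with the highest sums of the 8 atrial markers. Of these markers, Nr2f2 was higher in VO 1 and VO 3 than in either, and Nr2f1 was lower in Sham 1 than in VO 3 and CsA 2. The 4 adipocyte markers summed to 2.09 FPKM in Sham 3, 0.222 FPKM in Sham 1 and 0.0309 FPKM in Sham 2. Their sum was 0 in VO and CsA, and Lep was at 0 in all 9 libraries. The part of these atrial and adipocyte marker levels in the Pcx values was not tested. Without Sham 1, Sham 3 and CsA 3 the log2 fold change was -0.30 ± 0.29, with 1 Sham library left. Lrfn4 overlaps Pcx on the opposite strand at a mean of 3.06 FPKM, and the strand setting of the counting was not known here, so the Pcx values are uncertain.

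Among malic enzymes and aminotransferases, Me3 was at 4.35, 4.00 and 4.20 FPKM in Sham, 3.15, 2.79 and 3.59 FPKM in VO and 3.23, 4.14 and 3.63 FPKM in CsA. VO lay below Sham without overlap, at a log2 fold change of -0.31 ± 0.13 (95% interval -0.61 to -0.02; limma adjusted p = 0.152). Me2 was higher in VO without overlap, at 5.72 ± 0.122 against 4.11 ± 0.932 FPKM (SD, n = 3; log2 0.41, limma adjusted p = 0.294), and cytosolic Me1, which makes NADPH, lay between 32.1 and 40.2 FPKM in all libraries. Got1 was at 263, 192 and 252 FPKM in Sham, 160, 170 and 272 FPKM in VO and 183, 248 and 175 FPKM in CsA, with overlap between all groups (log2 -0.26, 95% interval -0.84 to 0.31, and -0.50 without VO 3). Got2 was at 113 and 124 FPKM in VO 1 and VO 2, under the 171 to 179 FPKM of Sham, and at 216 FPKM in VO 3.

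Of the ketone body enzymes, Oxct1, which activates acetoacetate and sets the rate of ketone use in heart, was at 160, 141 and 178 FPKM in Sham, 160, 110 and 179 FPKM in VO and 156, 158 and 139 FPKM in CsA. The groups overlapped, with a log2 fold change of -0.12 for VO against Sham (95% interval -0.59 to 0.36). Acat1, which splits acetoacetyl-CoA, lay between 114 and 156 FPKM with overlapping groups. Bdh1, which oxidises hydroxybutyrate, had 16, 11 and 13 fragments in Sham, 3, 4 and 6 in VO and 6, 2 and 10 in CsA, under the filter and too few to give a reliable fold. With no filter its adjusted p for VO against Sham was 0.115 in limma.

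**Figure D4:**
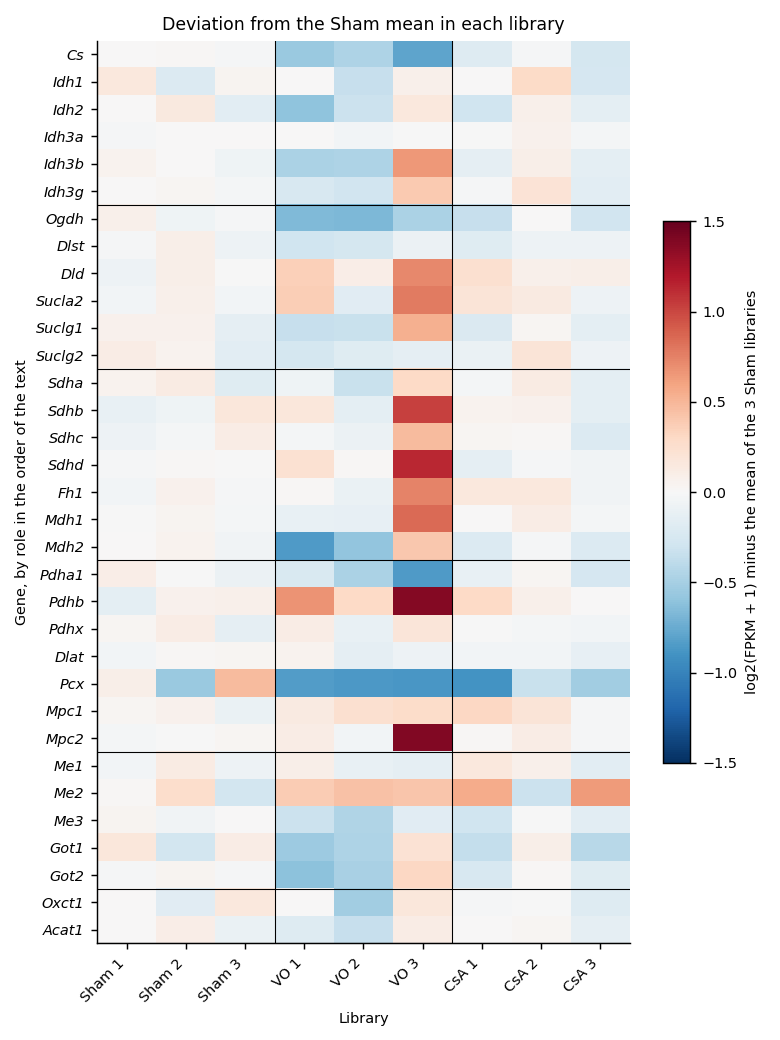
Difference of log2(FPKM + 1) from the mean of the 3 Sham libraries for each tested gene (by role, from top to bottom) and library (from left to right), red above and blue below. VO 3 is red for much of the cycle while VO 1 and VO 2 are blue for many of the same genes, and Cs, Ogdh, Pdha1 and Pcx are blue in all VO libraries.

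The VO libraries did not move as 1 group. In VO 2, 28 of 33 members were below the Sham mean and 5 above, in VO 1 there were 18 and 15, and in VO 3 there were 10 and 23. VO 3 was above all 8 other libraries for 20 of 33 members and below all of them for Cs and Pdha1, where 27.3% and 25.8% of all tested genes were above and below. Against the mean of VO 1 and VO 2 the highest were Mpc2, at 2.56-fold, Mdh2 and Idh3b, at 2.18- and 2.16-fold, Sdhb and Sdhd, at 2.02- and 2.004-fold, and Mdh1, at 1.96-fold. Dlat was at 0.977-fold and Pdha1 at 0.709-fold. Across the 33 members this difference had a Spearman correlation of -0.32 with gene length and 0.15 with GC content, and across all 13477 genes of -0.44 and 0.30. These are descriptions across genes of 1 library, and genes are not independent replicates. The low mitochondrial share, the red blood cell level and the endothelial marker sum moved with VO 3, and their part in these values was not tested. That sum was 626 FPKM in VO 3 against 283 to 435 FPKM elsewhere. Fabp4 alone was at 456 FPKM in VO 3, against 111 to 175 FPKM elsewhere. Pecam1, Kdr, Tie1 and Plvap in VO 3 lay within the range of the other libraries, and Cdh5, at 53.7 FPKM, was the lowest of all.

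Without VO 3, limma called 5 members lower in VO and 0 higher, where 15.1% of all genes were called, 8.1% lower and 6.98% higher. These were Mdh2 (log2 -0.72, adjusted p = 0.0326), Ogdh, Got2 (-0.55, 0.0358), Cs and Idh3b (-0.47, 0.0426). With the GC correction as well, 0 members were called, against 0.141% of all genes (0.0968% lower and 0.0447% higher), while the 5 stood at -0.61, -0.48, -0.26, -0.55 and -0.56 in the same order. In each of these fits the VO group holds 2 libraries.

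Summed over the 34 members, the level was 5314, 5380 and 5246 FPKM in Sham, 4828, 4473 and 7485 FPKM in VO and 5087, 5536 and 4833 FPKM in CsA. As a share of the summed FPKM of all genes this was 1.31%, 1.24% and 1.18% in Sham, 1.24%, 1.14% and 2.002% in VO and 1.15%, 1.201% and 1.14% in CsA. The mean share was 0.217 percentage points higher in VO than in Sham (exact two-sided permutation p = 0.9), and -0.0538 without VO 3. Without the mitochondrially encoded genes in the total, the shares were 2.38% to 2.39% in Sham, 2.52%, 2.20% and 2.66% in VO and 2.20% to 2.40% in CsA, and the difference was 0.0763 percentage points (exact permutation p = 0.7).

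CsA was set against VO to ask what differed with the drug after the same surgery. In the CsA libraries Cs stood higher and Pdhb lower than in VO, without a member past the test. In limma 0 of 33 members passed, where 0% of all genes passed (2219 genes, 16.5%, at an unadjusted p under 0.05), and voom called 0. At an unadjusted p under 0.05 there were 2 members, Cs higher and Pdhb lower in CsA. Cs was at 215 ± 19.4 against 158 ± 18.1 FPKM (SD, n = 3), a log2 fold change of 0.45 ± 0.17 (95% interval 0.07 to 0.83; limma adjusted p = 0.256). Pdhb was at 231 ± 24.7 against 383 ± 151 FPKM, at -0.66 ± 0.27 (95% interval -1.26 to -0.06; limma adjusted p = 0.271), and without VO 3 at -0.36. Ogdh was at 0.39 ± 0.18 (95% interval -0.01 to 0.79; adjusted p = 0.313).

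Libraries of CsA and VO did not overlap for 5 members, against 21.2% of all genes: Cs, Ogdh and Suclg2 were higher (10.9% of all genes) and Sdhd and Pdhb lower (10.3%) in CsA. For the other members the groups overlapped, and intervals such as -0.46 to 0.87 for Mdh2 leave room for changes of either sign. Both comparisons with VO share the VO libraries, so a value in VO that departs by chance moves both.

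In CsA against Sham, which asked whether the treated overloaded ventricle differed from control, 0 of 33 members passed in limma, where 0% of all genes passed and 200 (1.48%) had an unadjusted p under 0.05, and voom called 0. The 1 member at an unadjusted p under 0.05 was Pcx (log2 -0.58 ± 0.25, 95% interval -1.14 to -0.02; limma adjusted p = 1). Without Sham 1, Sham 3 and CsA 3 Pcx was at -0.05 ± 0.31. Ogdh was at -0.21 (95% interval -0.61 to 0.19), Me3 at -0.16 (-0.45 to 0.14), Cs at -0.15 (-0.54 to 0.23) and Pdhb at 0.13 (-0.47 to 0.73). The groups did not overlap for 2 members, against 9.74% of all genes (4.8% higher and 4.94% lower), and these were Sdhd and Dlat, both lower in CsA, at -0.07 each.

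A list of 53 other genes of the pathway, of which 50 were tested, held 4 genes past the test in VO against Sham, of which 2 rose and 2 fell, where 2.04% and 2.72% of all genes did. The kinase Pdk2, which phosphorylates Pdha1, was at 82.8, 75.2 and 92.6 FPKM in Sham, 36.3, 47.3 and 52.6 FPKM in VO and 60.6, 87.4 and 60.9 FPKM in CsA. The nuclear receptor Esrra, a regulator of mitochondrial genes, was at 36.7, 34.4 and 33.7 FPKM in Sham, 15.5, 24.0 and 21.6 FPKM in VO and 27.97, 31.2 and 26.6 FPKM in CsA. All VO libraries lay below all others for both genes.

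Pdk2 averaged 45.4 ± 8.33 against 83.5 ± 8.73 FPKM (SD, n = 3) and fell by 0.88 on the log2 scale (limma adjusted p = 0.0456), and Esrra averaged 20.4 ± 4.37 against 34.9 ± 1.53 FPKM and fell by 0.77 (adjusted p = 0.0422). The assembly factor Sdhaf3, at 2.94 ± 0.391 against 1.41 ± 0.151 FPKM, rose by 0.71 (adjusted p = 0.0404), and Slc16a1, a carrier of lactate, pyruvate and ketone bodies, at 165 ± 28.8 against 93.9 ± 3.90 FPKM, rose by 0.79 (adjusted p = 0.0456). For these 4 genes no VO library overlapped Sham or CsA. With the GC correction the log2 fold changes were -0.57 for Pdk2, -0.74 for Esrra, 0.39 for Sdhaf3 and 0.56 for Slc16a1, none past the test (limma adjusted p from 0.0859 to 0.192). The GC contents of these transcripts were 56.9%, 50.3%, 39.9% and 42.9%.

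**Figure D5:**
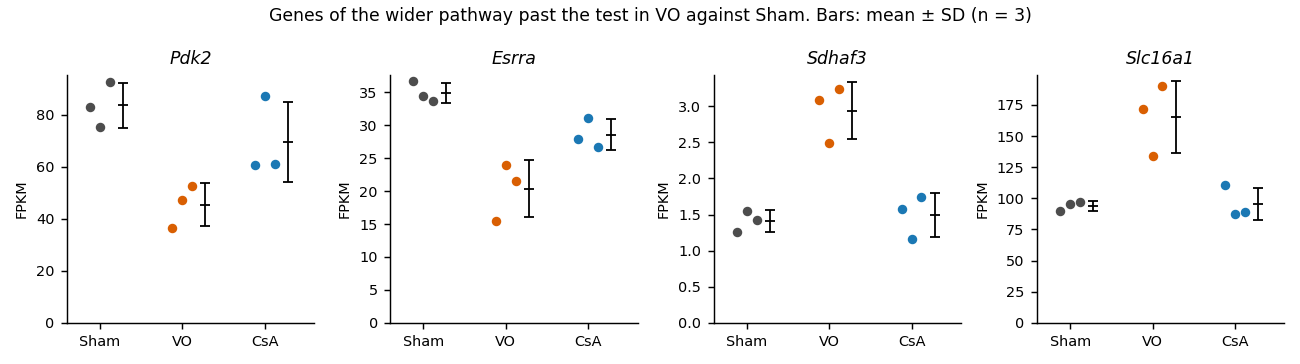
FPKM by library (libraries 1 to 3 from left to right, axes from 0) for the 4 other pathway genes that passed in VO against Sham, with the mean ± SD (n = 3). VO points lie below Sham and CsA for Pdk2 and Esrra and above both for Sdhaf3 and Slc16a1.

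In CsA against VO, which shares the VO libraries, these 4 genes were at the following log2 fold changes: Pdk2 at 0.60, Esrra at 0.49, Sdhaf3 at -0.66 and Slc16a1 at -0.78, and none passed (limma adjusted p from 0.204 to 0.242). By role, the 11 regulators had 1 lower and 0 higher call, the 7 tested genes of succinate dehydrogenase assembly and other cycle steps 1 higher, the 10 genes of pyruvate dehydrogenase regulation and lipoylation 1 lower, the 9 lactate, monocarboxylate and ketone genes 1 higher, and the shuttle and anaplerosis genes 0. In limma 0 of the 50 passed in CsA against VO (10 at an unadjusted p under 0.05) and 0 in CsA against Sham (0 at an unadjusted p under 0.05). The calls of all 4 were lost in limma with no filter on low values, with the GC correction, with only the groups compared in the fit, with a replicate block and without Sham 1, Sham 2, Sham 3, VO 1, CsA 1 or CsA 3, each left out alone. Without Sham 3, VO 1, CsA 1 or CsA 3, 0 of all 13477 genes passed, whereas without VO 3 2032 passed and all 4 kept their calls. The 4 directions held in each of these fits.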

How the data were processed

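RNA from right ventricular myocardium was sequenced in 9 libraries, 3 per group, after library preparation with a NEBNext Ultra kit from 1 µg of RNA, per the labels' protocols. The authors deposited 1 table of FPKM values per gene (fragments scaled by gene length and library size, as the name says). The submitters' processing notes name the builds GRCm38 and mm10 and, without roles, featureCounts 1.5.0-p3, HISAT2 2.0.5, GATK 3.7, StringTie 1.3.3b and DESeq2 1.20.0, and no source used here gives the strand setting. Multiplying FPKM by gene length and scale gave whole fragments (within 0.1) for 100% of values, which set the depths and were used for voom.

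The 13477 of 54532 genes whose mean level reached 0.5 FPKM were tested with limma 3.58.1 in R 4.3.3, with a mean-variance trend, on log2(FPKM + 1), with all 9 libraries in 1 fit and Benjamini-Hochberg adjustment over all tested genes at 0.05. Fold changes on that scale understate changes of low genes. Ratios and shares were compared with exact two-sided permutation tests over libraries (scipy 1.17.1, Python 3.11.15), and figures were drawn with matplotlib 3.10.9. The GC correction was a loess of each library on transcript GC content (span 0.3). On simulated data for the 13477 genes, the VO against Sham test recovered 59 of 100 genes changed by log2 1 and 91 of 100 changed by log2 2, with 11 false calls. The simulated noise was independent between genes, with each gene's spread the same in all 9 libraries, no outlying library and no GC trend. The largest member change was 0.86, so the simulation does not give how often changes of the members' size would be found.

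Members with values in every library were those past the test in any comparison, the 3 with the smallest p per comparison and the highest member of each role. Others given that way in full or in part were chosen after their values were seen, as was the Pdhb/Pdha1 ratio. These others were Pdha1, Mdh2, Mpc2, Sdhb, Sdhd, Got2, Suclg1, Idh3b, Idh3g and Mpc1-ps. The members and gene lists were chosen with earlier results of these data known. Alternatives were other pseudocounts, filters, scalings, a GC correction, voom, a replicate block, and libraries left out. An item of the wider gene list is not reported here.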

Additional observations from a re-analysis of the deposited data

How the results depend on the processing

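In VO against Sham, 0 members were called in limma in all but 2 of 22 other settings: quantile normalization called 1 (Pdhb), and leaving out 1 library in turn gave 0 to 5, with 5 without VO 3. Over all genes the count of 642 went to 0 with no filter, with the GC correction and with only the groups compared, to 2032 without VO 3 and to 1011 with voom. In CsA against VO and CsA against Sham 0 members were called in every setting. Replicate numbers showed no clear pairing of the libraries. The deviations of same-numbered libraries correlated at -0.40 to 0.24 and those of other pairs at -0.19 to 0.27, which cannot exclude pairing. The fit with the replicate block called 0 members in each comparison and 1 gene of all in VO against Sham.

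Leaving out each library in turn, the log2 ratio difference in VO against Sham ran from -0.0552 to 0.291 for Idh1/Idh2 and from -0.161 to 0.0962 for Got1/Got2, and the share difference from -0.0538 to 0.377 percentage points. In CsA against VO it ran from -0.155 to 0.192 for Idh1/Idh2 and from -0.217 to 0.00521 for Me1/Me3. In CsA against Sham it ran from -0.0396 to 0.256 for Idh1/Idh2, from -0.252 to 0.00489 for Got1/Got2 and from -0.0346 to 0.144 for Sucla2/Suclg2. The GC correction of the ratios, chosen after seeing the data as was its use together with leaving out VO 3, turned Idh1/Idh2 to -0.294 in VO against Sham, 0.235 in CsA against VO and -0.0587 in CsA against Sham, and Got1/Got2 to -0.0975 in VO against Sham. The cause was not tested. Mdh1/Mdh2 kept its sign in every setting run. Pcx and Bdh1 are limited by few fragments.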
